A study of Homo sapiens with 12 samples.

Results

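The levels of 9 genes of blood coagulation and of the plasminogen system were followed through 12 RNA-seq libraries of 3 established human cancer cell lines. They are F3, F5, TFPI, TFPI2, F2R, F2RL1, PLAU, PLAT and PLAUR, taken by symbol, and all 9 were found once each among the 57500 genes of the count table. The list was drawn up by name with results of both comparisons already known, and F5 had been singled out before as 1 of the 5 genes with the highest fold change in SW620. The differences below therefore describe these genes, F5 is given without a test, and the adjusted p-values of the others place each gene in a fit over all genes without serving as independent evidence. SW480 comes from a primary colorectal tumour and SW620 from a metastasis of the same patient, and both were grown untreated in DMEM with 10% serum. The ovarian cancer line PEO4 was kept in RPMI 1640 with 10% serum, as a control or exposed for 6 days to the recombinant human cytokine TGF-β at 10 ng/mL. All media held penicillin and streptomycin. Each of the 4 groups holds 3 biological replicates, which the labels do not describe further, so the p-values measure the spread between these libraries of 1 line each. The first comparison sets the line from the metastasis against that from the primary tumour, and the other sets cytokine-treated PEO4 against its control.

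Coagulation outside the vessel starts when tissue factor, the membrane protein made by F3, binds factor VII and activates factor X. Factor V, made by F5 mainly in the liver, is the cofactor with which factor Xa turns prothrombin into thrombin. TFPI, a Kunitz-type inhibitor, blocks proteases of this path, and TFPI2 is its relative of the same inhibitor type. Thrombin signals to cells through the receptor F2R (PAR1), while F2RL1 (PAR2) is cleaved by trypsin-like proteases and by the tissue factor complex. Plasmin, which dissolves fibrin and degrades matrix, is made from plasminogen by urokinase (PLAU) and by tissue-type activator (PLAT), and PLAUR is the receptor that holds urokinase at the cell surface. Tumour cells are known to make tissue factor and urokinase.

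Promoter windows from 250 bases before to 50 bases after the transcription start were found in RefSeq (GRCh38.p14) for 7 of the 9 genes, 8 windows in all, because PLAU has 2 starts. F2R and PLAT had no entry. The windows of the genes whose levels separate the groups most are shown, 5′ to 3′ on the gene's own strand. Capitals mark the AP-1 motif TGANTCA and the TATA motif TATAAA or its reverse complement. They are chr1:169586432-169586731 for F5, chr1:94541710-94542009 for F3, chr7:93890704-93891003 for TFPI2 and chr19:43670120-43670419 for PLAUR, all on the minus strand. Those of PLAU, on the plus strand, are chr10:73910360-73910659 (start 1) and chr10:73910882-73911181 (start 2).
F5: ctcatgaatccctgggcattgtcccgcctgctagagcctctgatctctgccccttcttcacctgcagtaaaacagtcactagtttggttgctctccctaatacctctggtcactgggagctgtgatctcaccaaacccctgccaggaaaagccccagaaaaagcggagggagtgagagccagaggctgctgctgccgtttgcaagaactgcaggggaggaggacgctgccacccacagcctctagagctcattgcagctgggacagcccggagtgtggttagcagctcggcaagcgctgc
F3: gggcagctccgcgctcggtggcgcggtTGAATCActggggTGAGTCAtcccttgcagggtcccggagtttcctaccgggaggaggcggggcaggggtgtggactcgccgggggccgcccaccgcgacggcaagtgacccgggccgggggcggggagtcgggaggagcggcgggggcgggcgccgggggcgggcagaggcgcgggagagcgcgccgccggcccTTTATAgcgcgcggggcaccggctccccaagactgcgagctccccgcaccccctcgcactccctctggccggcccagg
TFPI2: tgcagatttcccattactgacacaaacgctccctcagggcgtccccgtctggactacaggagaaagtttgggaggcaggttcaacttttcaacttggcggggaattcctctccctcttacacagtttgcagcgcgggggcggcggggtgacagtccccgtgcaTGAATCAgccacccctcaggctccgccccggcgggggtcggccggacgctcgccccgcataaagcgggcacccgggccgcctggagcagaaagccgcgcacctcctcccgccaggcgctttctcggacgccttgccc
PLAUR: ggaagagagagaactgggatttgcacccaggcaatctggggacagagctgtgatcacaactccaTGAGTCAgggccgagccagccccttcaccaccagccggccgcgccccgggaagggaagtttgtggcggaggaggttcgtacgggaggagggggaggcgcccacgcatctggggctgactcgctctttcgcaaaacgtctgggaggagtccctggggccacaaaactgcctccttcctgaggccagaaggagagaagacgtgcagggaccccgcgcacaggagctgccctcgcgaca
PLAU start 1: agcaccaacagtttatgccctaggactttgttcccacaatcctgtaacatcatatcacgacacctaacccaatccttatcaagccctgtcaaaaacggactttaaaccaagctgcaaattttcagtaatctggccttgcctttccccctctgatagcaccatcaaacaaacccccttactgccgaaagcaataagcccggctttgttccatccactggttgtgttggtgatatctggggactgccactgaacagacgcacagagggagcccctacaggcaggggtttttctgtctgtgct
PLAU start 2: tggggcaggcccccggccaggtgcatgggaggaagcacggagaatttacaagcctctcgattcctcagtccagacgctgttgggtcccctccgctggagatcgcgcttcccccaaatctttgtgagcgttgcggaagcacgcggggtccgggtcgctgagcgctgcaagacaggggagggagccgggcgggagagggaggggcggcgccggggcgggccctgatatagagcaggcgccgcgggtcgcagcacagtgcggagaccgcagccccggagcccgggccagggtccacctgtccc
The AP-1 motif was in 3 of the 8 windows, of 3 of the 7 genes, against 7.71% of all 35116 promoter windows of this length. F3 held it 223 and 210 bases before the start, PLAUR 186 bases and TFPI2 87 bases before it. The TATA motif was matched on the opposite strand of F3, 28 bases before the start (11.5% of all windows hold it on either strand). The SMAD motif AGNCAGAC, on either strand in 4.62% of all windows, was in none of the 8 windows. A match describes letters in a window, and a missing match says nothing of the factor.

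Library totals ran from 14531420 to 22028956 counts. On these totals, before TMM scaling, a count of 0 allows a level of up to 0.136 to 0.206 CPM. That is the level that 3 counts would give, counting error only, and it shifts with the scaling of each library. Levels are given as CPM, the usual library-size-scaled counts, after TMM scaling over all 12 libraries. The 5 colorectal markers summed to 34.9 to 55.9 CPM in SW480, 183 to 290 CPM in SW620 and at most 2.502 CPM in PEO4. However, CDX1 and GPA33 were below 1 CPM on average in both SW lines, and CDH17 was at 0.54 CPM in SW480. The SW480 sum thus rested on CDX2 and VIL1 (18.7 and 25.9 CPM on average). The 5 Müllerian markers summed to 2634 to 7996 CPM in PEO4 and at most 107 CPM in the SW lines. Most of the PEO4 sum was MUC16 (5666 CPM on average in control and 2439 CPM with TGF-β). SOX17 went the other way, at 1.60 CPM in control and 1.84 CPM with TGF-β against 2.56 in SW480 and 2.99 in SW620. Endothelial, leukocyte and hepatocyte markers summed to at most 6.24, 7.09 and 1.35 CPM in any library. Of the 5 fibroblast markers, which summed to 235 to 402 CPM in PEO4 and at most 18.7 CPM in the SW lines, THY1 alone averaged 284 CPM in PEO4 control. SW620 replicate 3 stood apart. It was judged by 37 genes with at least 10 CPM in both PEO4 groups. Each had at most 2 counts in every other SW library. In SW620 replicate 3 these genes reached 1.11% of their PEO4 control level. The share was 0.186% to 0.367% in the other SW libraries, over 39 to 48 genes chosen likewise for each. SW620 replicate 3 was left out of the choice of those genes. For TFPI2, PLAT, PLAU, PRSS8 and THBD, where such a share would make up the largest parts of the level among the 9 genes and the related genes listed below, values without this library are given too. In bulk RNA, fewer cells making a transcript and less transcript per cell cannot be told apart.

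The 3 cell lines had different leading genes. Per kilobase of annotated exon, the highest of the 9 was PLAUR in SW480 (3.87 ± 0.839 CPM per kb), followed by F3 (3.18 ± 0.798) and F2RL1 (3.02 ± 0.976; SD, n = 3). In SW620 F2RL1 (5.51 ± 2.07 CPM per kb) and F5 (5.43 ± 1.39) led. PLAU led in PEO4, with 39.1 ± 14.2 CPM per kb in control and 105 ± 17.2 with TGF-β, and made up 40.2% and 62.0% of the summed level of the 9 genes per kb. PLAT followed in control (21.1 ± 2.74 CPM per kb), while with TGF-β TFPI2 (15.5 ± 3.11) and PLAT (15.0 ± 4.27) were level. These orders depend on the exon lengths, which join all annotated exons of a gene (2.95 kb for PLAU, 6.618 kb for PLAT). In mean CPM, PLAT was above PLAU in PEO4 control (139 against 115) and above TFPI2 with TGF-β (99.2 against 41.5). The ranges of PLAT and PLAU in control overlapped, and in control replicate 1 PLAU was the higher (164 against 132 CPM). F5 was above F2RL1 in SW620 (38.9 against 16.3 CPM). Per kb, TFPI, with the longest joined exons (11.714 kb), was the lowest or next to lowest of the 9 in every group. In CPM it stood above F2R and TFPI2 in SW620 (1.68 against 0.914 and 0.603). It also stood above F5 and TFPI2 in SW480 (0.445 against 0.178 and 0.121 CPM).

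**Figure D1:**
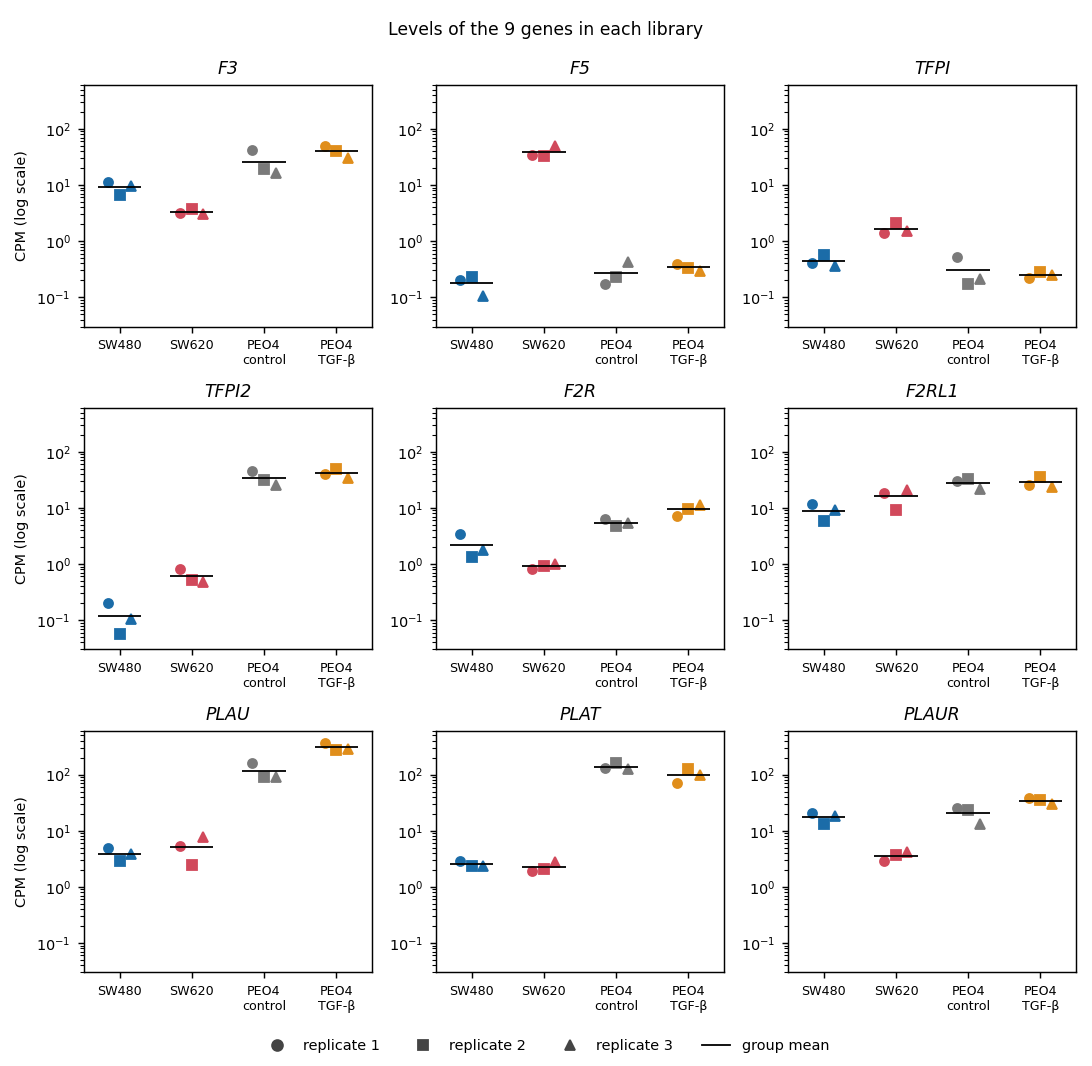
CPM of the 9 genes on a log axis in each of the 12 libraries (points, with the shape giving the replicate number) and the group means (lines). F5 stands at 32.7 to 50.4 CPM in SW620 and under 0.5 CPM elsewhere, while TFPI2, PLAU and PLAT are high in both PEO4 groups and low in both SW lines.

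Between the SW lines, F3 and PLAUR fell and TFPI rose in SW620 in the fit over all genes, and F5 was the gene with the largest difference of the 9. The receptors F2R and F2RL1 and the activators PLAU and PLAT did not pass the threshold. F5 aside, 7 of the 8 other genes had enough counts to be tested and 3 had an adjusted p under 0.05 (edgeR's quasi-likelihood test, Benjamini-Hochberg over 20941 genes), 1 higher and 2 lower. Over all genes tested 30.5% passed, 13.5% higher and 17.0% lower, so nothing is read from that count. The median log2 fold change was -0.13 over these 7 genes and 0.03 over all genes tested.

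Tissue factor (F3, ENSG00000117525, chromosome 1, 94529225 to 94541800 on GRCh38 in GENCODE 29) had 11.3, 6.71 and 9.48 CPM in SW480 replicates 1 to 3 and 3.13, 3.77 and 3.07 CPM in SW620. The groups did not overlap. On the log2 scale SW620 differed by -1.42 ± 0.27 (SE; edgeR's adjusted p 0.00379). The call held in each of the 6 fits that left out 1 library, from -1.61 to -1.22.

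F5 (ENSG00000198734, chromosome 1, 169514166 to 169586588) had 4, 4 and 2 counts in the SW480 libraries and 697, 633 and 1067 counts in SW620. In CPM these were 0.202, 0.227 and 0.104 against 33.6, 32.7 and 50.4. Summed counts per depth were 231-fold higher in SW620, with a 95% counting interval from 126 to 483. PEO4 had 3 to 8 counts per library in control and 6 or 7 with TGF-β, so SW620 was the 1 group of the 4 in which F5 was above 10 counts. The summed hepatocyte markers, 0.774 to 1.35 CPM in SW620 and 0.341 to 0.518 CPM in SW480, were also higher there, at a far lower level. That came from FGA, the fibrinogen alpha chain, with 17, 7 and 19 counts in SW620 against 0, 1 and 2 in SW480. ALB averaged 0.24 CPM in SW620 and 0.23 CPM in SW480, and APOA1 0.086 and 0.053 CPM. SERPINC1 went the other way, with 0.034 CPM in SW620 and 0.121 CPM in SW480. FGA was singled out after its values were seen. The part of such transcripts in the F5 difference was not tested.

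The genes for export of factor V did not pass the test. LMAN1, the cargo receptor that carries factors V and VIII out of the endoplasmic reticulum, averaged 82.9 CPM across the SW480 libraries and 95.2 CPM across those of SW620 (log2 fold change 0.22 ± 0.23, adjusted p 0.527 in edgeR's test). Its partner MCFD2 had 125 and 90.6 CPM (-0.44 ± 0.25, adjusted p 0.23). F10, the gene of the protease that factor V serves, rose from 6.36 to 15.0 CPM (1.26 ± 0.25, adjusted p 0.00497), with no overlap between the lines. Prothrombin (F2) averaged 0.51 and 0.69 CPM and did not pass (edgeR's adjusted p 0.684). F8, the gene of the related cofactor factor VIII, fell from 6.10 to 2.82 CPM (-1.08 ± 0.31, adjusted p 0.0257), and its adjusted p was over 0.05 without SW480 replicate 1 or 3 and without SW620 replicate 1 or 2.

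TFPI (ENSG00000003436, chromosome 2, 187464230 to 187565760) was low in both lines, with 0.404, 0.568 and 0.363 CPM in SW480 and 1.40, 2.12 and 1.51 CPM in SW620. All SW620 libraries lay above all SW480 libraries, which held 7 to 10 counts each. On the log2 scale TFPI was 1.93 ± 0.46 (SE) higher (edgeR's adjusted p 0.0112). The call was lost without SW480 replicate 1 (edgeR's adjusted p 0.0592) and without SW480 replicate 3 (0.0601). TFPI2 (ENSG00000105825, chromosome 7, 93885396 to 93890991) had 4, 1 and 2 counts in SW480 and 17, 10 and 10 in SW620, too few to be tested. Its counts per depth were 5.10-fold higher in SW620, with a counting interval from 2.24 to 13.6. GNGT1, annotated on the opposite strand over TFPI2, had up to 41 counts in a SW620 library and up to 4 in SW480. Over TFPI, also on the opposite strand, AC007319.1 had up to 15 counts in SW620 and 3 in SW480. Strand use in counting is not given in the sources used here. The part of such reads in the TFPI and TFPI2 differences was not tested. In SW620 replicate 3 the share of PEO4-like counts would equal 79.8% of its TFPI2 level. Replicates 1 and 2 of SW620, with 17 and 10 counts, exceeded every SW480 library. The part of PEO4-like counts in the TFPI2 difference was not tested.

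Thrombin receptor F2R (ENSG00000181104, chromosome 5, 76716043 to 76735781) had 3.43, 1.31 and 1.81 CPM in SW480 and 0.820, 0.929 and 0.992 CPM in SW620. These ranges did not overlap, yet the log2 fold change of -1.22 ± 0.45 (SE) did not pass (edgeR's adjusted p 0.0729). F2RL1 (ENSG00000164251, chromosome 5, 76818933 to 76835315), its neighbour on the chromosome, had 11.7, 5.91 and 9.22 CPM in SW480 and 18.8, 9.34 and 20.8 CPM in SW620, with overlap. The fitted log2 difference was 0.89 ± 0.32 and did not pass (edgeR's adjusted p 0.0675). Without SW620 replicate 2, the low library, it was 1.20 (edgeR's adjusted p 0.00516). The fitted values of the 2 receptors thus had opposite signs, and that contrast was not tested.

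The other receptors of the family moved further. F2RL3 (PAR4), a low-affinity thrombin receptor, rose from 0.78 to 11.5 CPM in SW620 (3.90 ± 0.32 on the log2 scale, edgeR's adjusted p 3.13e-05). F2RL2 (PAR3), a cofactor of thrombin signalling, had 21, 34 and 15 counts in SW480 and 1, 1 and 0 counts in SW620. Its summed counts per depth were 36.3-fold lower in SW620, with a counting interval from 9.67 to 305 (edgeR's adjusted p 0.00173).

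PLAUR (ENSG00000011422, chromosome 19, 43646095 to 43670547) had 20.4, 13.1 and 18.3 CPM in SW480 and 2.85, 3.72 and 4.11 CPM in SW620, with a wide gap between the lines. The mean level was 4.86-fold lower in SW620 and the log2 fold change -2.25 ± 0.24 (SE). Its adjusted p, 0.000161 in edgeR's test, stayed under 0.05 in all 16 alternatives. Its ligand PLAU (ENSG00000122861, chromosome 10, 73909177 to 73917497) did not follow. It had 4.85, 2.84 and 3.83 CPM in SW480 and 5.35, 2.43 and 7.75 CPM in SW620 (log2 fold change 0.45 ± 0.40, edgeR's adjusted p 0.458). Tissue-type activator PLAT (ENSG00000104368) had 2.88, 2.33 and 2.33 CPM in the SW480 libraries and 1.93, 2.06 and 2.79 in those of SW620, a log2 fold change of -0.13 ± 0.32 (edgeR's adjusted p 0.809). The share of PEO4-like counts would equal 55.4% of the PLAT and 16.5% of the PLAU level of SW620 replicate 3. Without that library the log2 fold changes were -0.29 for PLAT and 0.06 for PLAU, and neither passed.

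In PEO4, PLAU rose with TGF-β, and it was the 1 gene of the 7 tested that passed. Its level grew 2.67-fold from an already high base. The fitted values of F2R, PLAUR, F3 and TFPI2 were also positive, that of PLAT was negative and that of F2RL1 was close to 0, all without passing. Over all 19064 genes tested 2.26% passed (1.27% higher, 0.991% lower), so 1 of 7 is not read as a property of the list. The median log2 fold change was 0.58 over the 7 genes and -0.02 over all genes tested.

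**Figure D2:**
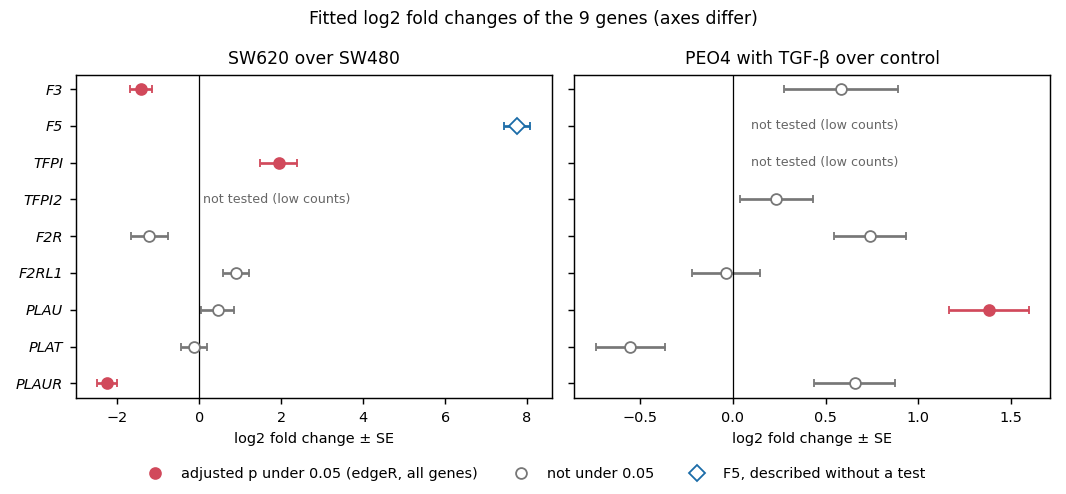
Fitted log2 fold changes with SE (bars) of the 9 genes in SW620 over SW480 (left) and in PEO4 with TGF-β over control (right), on separate axes. Filled points had an adjusted p under 0.05 over all genes, 3 on the left, and PLAU at 1.38 on the right, and the open diamond is F5 at 7.76, which is shown without a test.

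PLAU had 164, 91.5 and 91.2 CPM in PEO4 control and 367, 275 and 283 CPM with TGF-β. No treated library reached down to a control library, and control replicate 1 was the highest of the controls. On the log2 scale the rise was 1.38 ± 0.21 (SE; edgeR's adjusted p 0.015). It lost its call without control replicate 2 (1.26, adjusted p 0.11) and without TGF-β replicate 1 (1.23, adjusted p 0.0589 in edgeR's test). C10orf55, annotated on the opposite strand over PLAU, had up to 358 counts against 4885 to 6609 of PLAU in the treated libraries, and strand use in counting is not given in the sources used here.

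PLAUR had 25.8, 23.7 and 13.5 CPM in control and 38.4, 34.8 and 29.5 CPM with TGF-β. All treated libraries were above the controls. The log2 fold change of 0.66 ± 0.22 did not pass (edgeR's adjusted p 0.177). PLAT had 132, 160 and 126 CPM in control and 71.2, 128 and 98.5 CPM with TGF-β, where treated replicate 2 just exceeded control replicate 3. When the 6 PEO4 libraries were scaled on their own, the PLAT ranges did not overlap. The fitted log2 difference was -0.55 ± 0.19 and did not pass (edgeR's adjusted p 0.181).

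F2R had 6.36, 4.68 and 5.32 CPM in control and 7.27, 9.69 and 11.2 CPM with TGF-β, again without overlap. The fitted difference of 0.74 ± 0.20 on the log2 scale did not pass (edgeR's adjusted p 0.0978). F2RL1, at 29.9, 32.3 and 21.6 CPM in control and 25.9, 35.5 and 23.8 CPM with TGF-β, had a log2 fold change of -0.03 ± 0.18 (edgeR's adjusted p 0.948). The ranges of F2RL1 overlapped. In 6-library scaling, 4 of the 7 genes (PLAU, PLAUR, PLAT and F2R) had ranges without overlap, against 21.5% of all genes tested, and F5 aside 4 of 7 against 44.2% between the SW lines.

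F3 had 41.7, 19.6 and 16.5 CPM in control and 49.2, 40.4 and 30.0 CPM with TGF-β. Control replicate 1 lay among the treated libraries. The fitted log2 difference was 0.58 ± 0.31 with it (edgeR's adjusted p 0.386) and 1.08 without it (adjusted p 0.0185). TFPI2 had 45.0, 31.8 and 25.3 CPM in control and 40.5, 50.3 and 33.7 CPM with TGF-β, with a log2 fold change of 0.24 ± 0.19 (edgeR's adjusted p 0.597). It shares its locus with GNGT1 on the opposite strand, which had up to 124 counts in PEO4 where TFPI2 had at least 486. TFPI (3 to 9 counts per library) and F5 were too low in PEO4 to be tested, and their treated and control ranges overlapped.

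Across the lines, which grew in different media, levels were described without a test. TFPI2 was 56.5-fold higher in PEO4 control than in SW620, the next group down, and PLAU 22.3-fold. Without SW620 replicate 3 these steps were 51.0-fold and 29.7-fold. For PLAT the step was 39.5-fold, from SW480 to PEO4 with TGF-β. None of these ranges overlapped. For F3 and F2R the order was SW620, SW480, PEO4 control and PEO4 with TGF-β from low to high, and of the neighbours only the 2 PEO4 groups of F3 overlapped. PLAUR of SW480 (17.3 ± 3.74 CPM) and of PEO4 control (21.0 ± 6.62 CPM; SD, n = 3) overlapped. F2RL1 varied least, from 8.93 ± 2.89 CPM in SW480 to 28.4 ± 6.28 CPM in PEO4 with TGF-β (SD, n = 3).

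Ratios within a library, per kb of exon, showed the balance between genes of 1 pathway without between-library scaling. The ratio of PLAU to PLAT was 2.78, 1.28 and 1.63 in PEO4 control and 11.6, 4.83 and 6.45 with TGF-β, with no overlap. Where this ratio lies against 1 in control depends on the exon lengths used, which are the same for all libraries. PLAU over PLAUR was 0.317 to 0.359 in SW480 and 0.986, 2.84 and 2.85 in SW620. Receptor message thus exceeded that of its ligand in every SW480 library, and the ligand exceeded the receptor in both PEO4 groups, at ratios from 5.84 to 14.5.

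**Figure D3:**
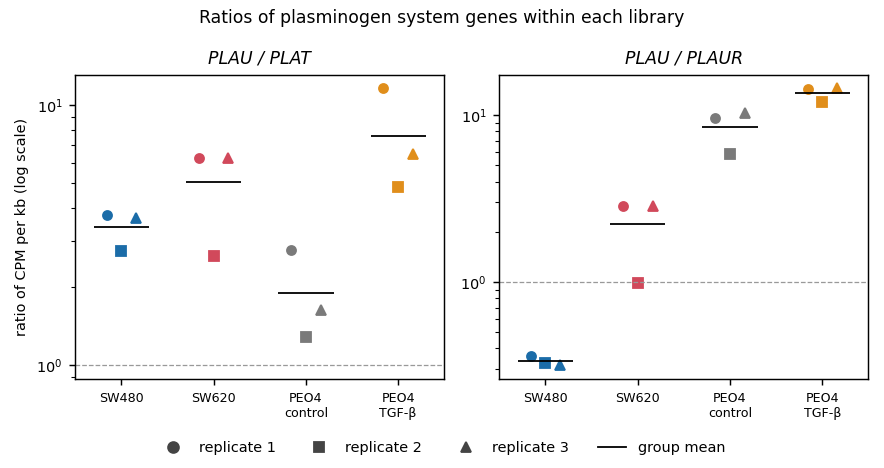
Ratios of PLAU to PLAT and PLAU to PLAUR within each library, from CPM per kb of exon, on log axes, with a dashed line at equal levels and black lines at group means. PLAU to PLAT is at 4.83 or more with TGF-β and at 2.78 or less in PEO4 control, and PLAU to PLAUR is below 1 in all SW480 libraries.

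Of the 54 other genes listed for coagulation and fibrinolysis, 41 were tested between the SW lines and 19 passed, 5 higher and 14 lower in SW620 (46.3%, beside 30.5% of all genes tested). Their median log2 fold change was -0.10. Single libraries weighed on this count, which was 9 without SW480 replicate 1 and without SW620 replicate 1 and 11 without SW480 replicate 3, where 19.0%, 19.5% and 19.8% of all genes tested passed. Of the 6 tested coagulation factors, F10 rose and F8, F12 and F13A1 fell. F13A1, the chain of factor XIII that crosslinks fibrin, went from 10.5 to 0.35 CPM (log2 fold change -4.83 ± 0.46, edgeR's adjusted p 7.2e-05). F12, which starts the contact pathway, fell by 1.02 on the log2 scale. F12, S100A10, LRP1, THBS1 and ST14 each lost their call without SW480 replicate 1, without SW480 replicate 3 and without SW620 replicate 1, and FURIN and HPN without the last of these. F7, F9, F11, F13B, the 3 fibrinogen chains, KLKB1, KNG1 and plasminogen itself (PLG) were too low to be tested in either comparison.

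Among inhibitors and the protein C system, PROS1, the anticoagulant cofactor protein S, rose from 4.24 to 15.5 CPM in SW620 (1.89 ± 0.23 on the log2 scale, edgeR's adjusted p 0.000327), while ANXA5, SERPINA5 and SERPINA10 fell. SERPINA5 lost its call in each of the 6 fits that left out 1 library, SERPINA10 without any 1 of the SW480 libraries, and ANXA5 in 4 of the 6 fits. PROCR, the protein C receptor, averaged 2.09 and 2.03 CPM (edgeR's adjusted p 0.99), and THBD was too low to be tested. Of the 12 tested genes around plasminogen, 5 (41.7%) fell and the others did not pass, where 17.0% of all genes tested were lower and 30.5% passed in either direction. Among the genes that fell were LRP1, THBS1 and both parts of the annexin A2 complex that binds plasminogen, ANXA2 (1553 to 290 CPM, log2 fold change -2.40 ± 0.29) and S100A10 (125 to 56.8 CPM, -1.11 ± 0.27; edgeR's adjusted p 0.000276 and 0.0136). SERPINE2 did not pass (0.12 ± 0.23), and SERPINB2 was not tested. GGCX, the vitamin K-dependent carboxylase, did not pass either (-0.42 ± 0.17, edgeR's adjusted p 0.103), whereas the convertase FURIN fell by 1.05 on the log2 scale.

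Of the membrane proteases listed for their action near F2RL1, TMPRSS2 rose from 4.68 to 31.7 CPM in SW620 (2.79 ± 0.17, edgeR's adjusted p 7.42e-06) and HPN rose (1.44 ± 0.38, adjusted p 0.0194). Matriptase (ST14) fell (-1.07 ± 0.25, adjusted p 0.00967). PRSS8 and the Kunitz inhibitors SPINT1 and SPINT2 did not pass. The PEO4-like share would equal 55.1% of PRSS8 and 45.4% of THBD in SW620 replicate 3. Without that library the log2 fold change of PRSS8 went from 0.93 to 0.11, and the SW620 mean of THBD from 0.549 to 0.305 CPM, beside 0.286 CPM in SW480.

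In PEO4, 34 of the 54 genes were tested and 2 passed (5.88%, beside 2.26% of all genes tested), THBS1 higher and SERPINA1 lower. The median log2 fold change was 0.28. Thrombospondin 1 (THBS1) rose from 126 ± 56.1 to 696 ± 156 CPM (SD, n = 3; 2.43 ± 0.30 on the log2 scale, edgeR's adjusted p 0.00586), and SERPINA1, the elastase inhibitor α1-antitrypsin, fell from 96.5 to 53.4 CPM (-0.91 ± 0.10, adjusted p 0.00375). Without control replicate 2 the adjusted p of THBS1 was 0.0577. The receptors PROCR and THBD of the protein C system did not pass. PROCR had 9.42, 5.48 and 6.73 CPM in control and 15.8, 17.3 and 11.1 CPM with TGF-β (0.98 ± 0.21, edgeR's adjusted p 0.0504). THBD, which turns thrombin into an activator of protein C, had 63.5, 33.1 and 31.1 CPM in control and 112, 76.0 and 71.1 CPM with TGF-β (0.98 ± 0.26, adjusted p 0.1). Neither gene's ranges overlapped. THBD had at most 1.04 CPM in any SW library. F2RL2 and F2RL3 were too low to be tested. Without control replicate 1, 12 of the listed genes passed, PROCR and THBD among them, and over all genes tested the number grew as well, from 431 to 1080 (5.38%).

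**Figure D4:**
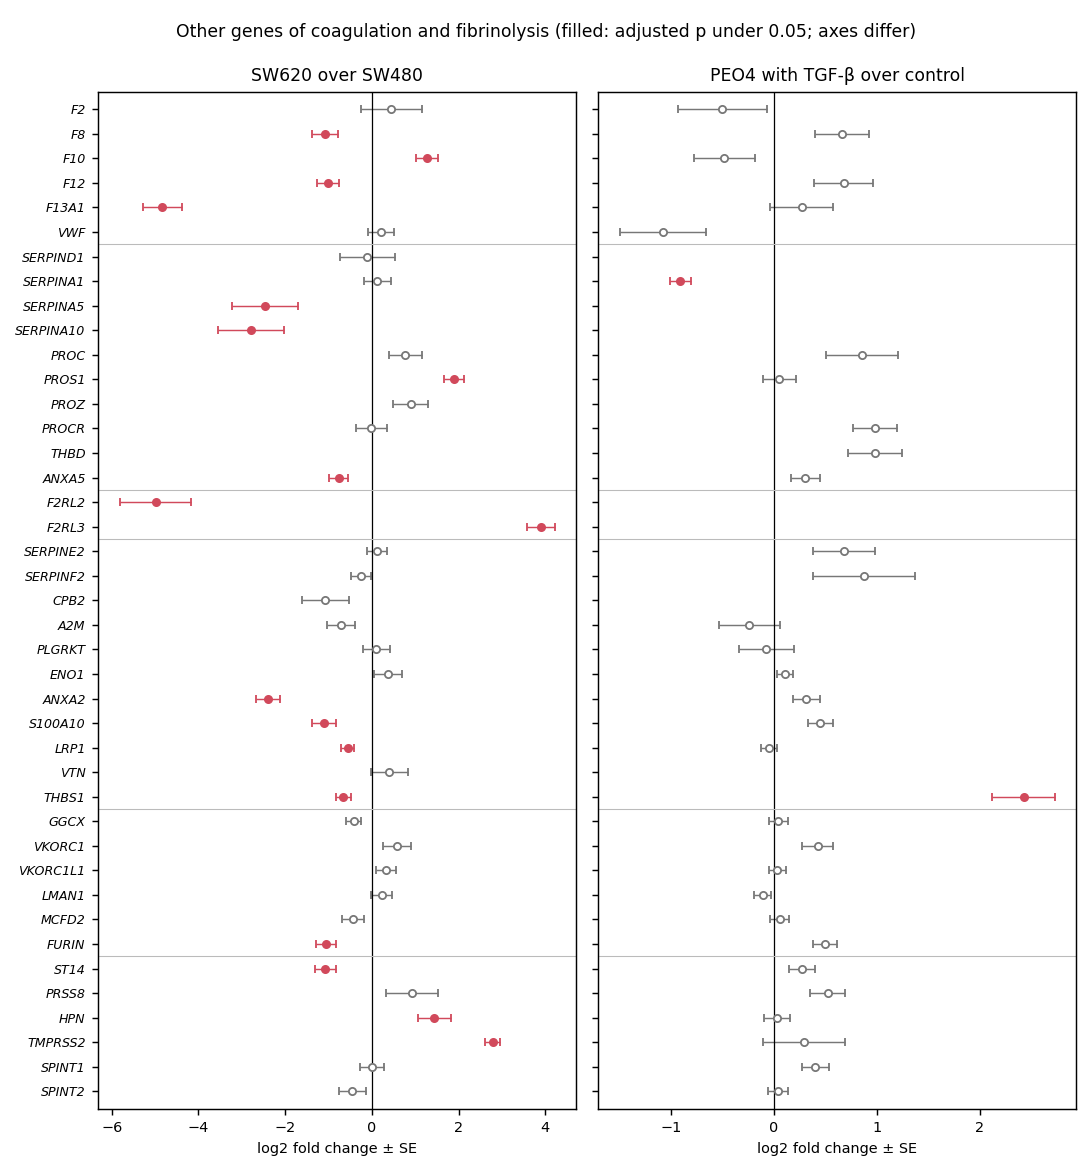
Fitted log2 fold changes with SE of the other coagulation and fibrinolysis genes that were tested in at least 1 comparison, in SW620 over SW480 (left) and PEO4 with TGF-β over control (right), grouped by role and on separate axes, with 1 gene of the list not drawn. Filled points had an adjusted p under 0.05 over all genes, such as F2RL3 at 3.90 on the left and THBS1 at 2.43 on the right.

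The authors' deposited table of the SW comparison lists 7 of the 9 genes besides F5 and gives 4 of them an adjusted p under 0.05, with F2RL1 (0.0422) in addition to F3, TFPI and PLAUR. For PEO4, the authors' deposited table lists 7 genes and gives 4 such values, PLAU (7.2e-10), F2R (0.0333), PLAT (0.0457) and PLAUR (0.0494). Fold changes in the authors' deposited tables differed from the fitted ones by at most 0.05 (SW) and 0.0016 (PEO4) on the log2 scale, so the extra calls lie in the p-values. DESeq2, which the submitters' processing notes name, also called these 4 genes of PEO4 here.

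For the 8 genes with at least 5 CPM in some group, the genes of most similar pattern over the 12 libraries were sought among 13391 others, by the root-mean-square difference of centred log2 CPM. The libraries fall into 4 groups, so likeness mostly reflects group levels. PLAUR had the nearest matches, PIM1 (0.18) and ELK3 (0.21), followed by F2RL1 with IFNGR1 and NPM3 (both 0.20) and PLAT with PABPC4L (0.23) and ZNF256 (0.27). MYLK (0.27) and KCNS3 (0.28) were nearest to F3, and TEAD3 (0.31) and SERPINB8 (0.33) to F2R. HBE1 (0.48) and ADAMTS18 (0.56) were nearest to F5, KLHL14 (0.48) and KRBA1 (0.49) to TFPI2, and KCNK3 and SLIT2 (both 0.49) to PLAU. HBE1, an embryonic globin gene, had 20.8 CPM in SW620 and at most 0.12 CPM on average in the other groups.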

How the data were processed

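Total RNA, depleted of ribosomal RNA and treated with DNase per the labels' protocols, was sequenced from 12 libraries. The authors deposited raw counts per Ensembl gene, and the submitters' processing notes name Trimmomatic 0.36, STAR 2.5.2b, featureCounts in Subread 1.5.2, DESeq2 and GRCh38. The annotation and strand setting are not given in the sources used here. The authors' deposited tables of differential expression hold, per the file headers, a log2 fold change and its p-value per gene, also in adjusted form. Those tables were only set beside the fits.

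Each comparison was fitted on its 6 libraries over all genes with edgeR 4.0.16 in R 4.3.3 (filterByExpr, TMM, glmQLFit, glmQLFTest, two-sided, Benjamini-Hochberg, threshold 0.05), without a replicate block. The standard error is the log2 fold change over the square root of F. Ratios of low counts carry 95% exact intervals for counting error only. Positions, exon lengths and overlaps come from GENCODE 29. Named are all 9 genes, the listed pathway genes that passed in either comparison, 15 of them whatever their result, and the 2 genes most like each member. A gene of the pathway list enters the counts and is not reported here. The 9 genes and the lists were chosen with earlier results of these data known. Alternatives were DESeq2 1.42.0, limma-voom (limma 3.58.1), 3 other scalings, 2 other filters, all 12 libraries in 1 model, a replicate block, glmTreat against 2-fold and leaving out each library. Those for pathway genes were chosen after seeing the data. The procedure was tested on simulated data with 200 genes changed.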

Additional observations from a re-analysis of the deposited data

How the results depend on the processing

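Between the SW lines PLAUR kept its direction and an adjusted p under 0.05 in all 16 alternatives, F3 in 15 of 16 and TFPI in 12 of 15. F5 was between 7.47 and 7.95 on the log2 scale in the 15 alternatives that gave it a value. PLAU in PEO4 kept its call in 13 of 16, and lost it under glmTreat and without control replicate 2 or TGF-β replicate 1. F5 aside, 3 of the 9 genes passed between the SW lines. That number was 6 with all 12 libraries in 1 model, 2 with at least 10 counts in every library, where TFPI was not tested, and 1 under glmTreat against a 2-fold change. Leaving out 1 library gave 2 to 4. In PEO4, 1 passed, against 4 with DESeq2, 5 without the filter and 0 under glmTreat, where 1 had an unadjusted p under 0.05. Leaving out 1 library gave 0 to 2; it was 0 without control replicate 2 and without TGF-β replicate 1 (3 with an unadjusted p under 0.05 in each, edgeR) and 2 without control replicate 1. Over all genes, the SW count of 6385 became 2504 under glmTreat and 4253 to 7419 without 1 library. The PEO4 count of 431 became 967 with DESeq2, 1457 without the filter, 165 with all 12 libraries, 9 under glmTreat and 72 to 1080 without 1 library. Of the listed pathway genes, 19 passed between the SW lines, 6 under glmTreat and 9 to 19 without 1 library, and 2 passed in PEO4, 7 with DESeq2, 11 without the filter, 3 with upper quartile factors or total counts, 1 with all 12 libraries and 1 to 12 without 1 library. The causes were not tested.

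With the replicate number as a block, 10667 genes passed between the SW lines and 2102 in PEO4, with 5 (F5 aside) and 5 of the 9 genes and 27 and 13 of the pathway genes. Deviations of same-numbered libraries correlated at 0.0159, 0.670 and 0.567 in the SW lines and at 0.291, -0.140 and 0.481 in PEO4. Between replicates 2 and 3 of the SW lines the values were -0.630 and -0.582. In both comparisons some libraries correlated best with their own number and others did not. Whether same-numbered libraries were handled together is not given in the labels and cannot be told from these values. The main fits, without a block, ignore any such pairing. Values near 0 changed sign. PLAT between the SW lines was 0.0076 without SW480 replicate 1 and 0.013 without SW620 replicate 1, down to -0.29 without another library, and F2RL1 in PEO4 was 0.0034 with all 12 libraries, 0.0067 without control replicate 1, 0.12 without control replicate 2, 0.019 without TGF-β replicate 1 and 0.071 without TGF-β replicate 3, down to -0.19 without TGF-β replicate 2. Levels on library totals moved by more than 1 SD in 3 of 36 values. Pearson correlation picked 2 of the 16 most similar genes again. F5 and TFPI in PEO4 and TFPI2 in the SW lines were limited by depth.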
